A study of Mus musculus with 9 samples.

Results

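Tenascin-C (Tnc), tenascin-X (Tnxb), periostin (Postn), the transforming growth factor beta induced protein (Tgfbi), fibronectin (Fn1) and versican (Vcan) are 6 proteins of the extracellular matrix. Their genes were followed in cells of the mouse embryonic forelimb sorted on a reporter of the tendon gene Scx. All probe sets of a 3' expression array annotated to the 6 symbols were taken, 18 of the 45101 on the array, which stand for 6 of 18194 genes with a probe set. Of the 18, 2 belonged to Tnc, 1 to Tnxb, 1 to Postn, 4 to Tgfbi, 2 to Fn1 and 8 to Vcan. The 6 genes and 13 of the 18 probe sets passed the filter on dim signals. The 5 that did not all belonged to Vcan.

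The embryos carried Scx-GFP, a fluorescent reporter of Scx, the gene of the tendon transcription factor scleraxis. Forelimbs taken on embryonic day E11.5, E12.5 or E14.5 were dissociated, GFP-positive cells were sorted on either of 2 instruments, and their amplified RNA was measured on Affymetrix arrays. There were 3 arrays per stage, lettered A, B and C, with no further genotype or treatment. The labels tie no sample to a sorter or a litter, so the p-values reflect only how far these samples spread, which may be technical.

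Tenascins, periostin and Tgfbi are matricellular proteins: they are secreted into the matrix and tune how cells attach to it rather than forming its main fibres. Fibronectin is assembled by cells into fibrils through integrin receptors and offers binding sites for collagens, tenascins and periostin. Versican is a large chondroitin sulphate proteoglycan that binds hyaluronan and forms a hydrated matrix around mesenchymal cells. In tendon, tenascin-C is a long-known product of tendon primordia and of the junctions between muscle and tendon, and tenascin-X is bound to collagen fibrils.

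The promoter sequences of Tnc, Postn and Tgfbi are shown because these genes were called higher at E14.5 than at E11.5 and have a RefSeq window at their annotated start, and because scleraxis binds E-boxes and SMAD proteins, the effectors of TGF-beta signalling, bind CAGAC. Each line gives the 250 bases before the RefSeq gene start (GRCm38.p6), 5′ to 3′ on the gene's strand. Capitals mark each CANNTG and each CAGAC (or GTCTG, its other strand). The windows are chr4:64047016-64047265 on the minus strand for Tnc, chr3:54359017-54359266 on the plus strand for Postn and chr13:56609336-56609585 on the plus strand for Tgfbi.
Tnc: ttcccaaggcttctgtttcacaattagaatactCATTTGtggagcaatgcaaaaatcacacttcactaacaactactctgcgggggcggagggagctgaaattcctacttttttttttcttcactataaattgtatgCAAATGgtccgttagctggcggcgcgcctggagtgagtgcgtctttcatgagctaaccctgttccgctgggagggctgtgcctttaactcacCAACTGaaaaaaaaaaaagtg
Postn: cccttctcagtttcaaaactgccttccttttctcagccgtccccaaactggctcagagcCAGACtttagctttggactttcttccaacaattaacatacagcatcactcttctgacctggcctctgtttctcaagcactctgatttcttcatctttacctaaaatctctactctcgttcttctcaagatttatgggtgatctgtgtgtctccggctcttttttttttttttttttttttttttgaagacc
Tgfbi: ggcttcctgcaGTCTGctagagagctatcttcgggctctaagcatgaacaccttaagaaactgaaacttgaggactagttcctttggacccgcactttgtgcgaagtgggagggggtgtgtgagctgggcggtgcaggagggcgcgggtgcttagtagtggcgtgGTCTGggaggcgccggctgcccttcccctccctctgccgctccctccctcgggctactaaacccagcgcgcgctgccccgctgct

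The Tnc window held CANNTG at 217, 113 and 21 bases before the start. The Postn window held 1 CAGAC, 191 bases before the start, and the Tgfbi window held GTCTG at 239 and 85 bases before the start. In full windows of 300 bases, which reach 50 bases past the start, CANNTG on either strand was found in 72.3% of the 32851 RefSeq mouse windows and CAGAC in 49.6%. None of the printed stretches held both motifs, so no matches overlap. The full Tnc window of 300 bases held 3 CANNTG and 1 CAGAC on either strand. A further Tnc window, at another RefSeq start, held 2 CANNTG and a GTCTG 70 bases before that start. For Tnxb and Vcan the window lies at another RefSeq start than that of the gene, and it held 1 CANNTG and 2 CAGAC for Tnxb and 1 CANNTG for Vcan. These matches are letters in a window and are not evidence of binding. Fn1 was not matched.

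Of the 5 genes that passed the filter before E14.5, 4 were called higher in E14.5 minus E11.5 and 1, Vcan, was not called. The sixth, Tnxb, passed through its E14.5 arrays alone, so it had to differ and is described without a test. Among all 11576 genes tested, 22.9% were called higher, and the median log2 change over all genes was 0.00. The changes were 5.57 for Postn, 2.56 for Tnc, 1.52 for Tgfbi and 0.66 for Fn1, and these are differences within a probe set, not levels compared between genes. All 3 E14.5 arrays lay above all 3 E11.5 arrays for the same 4 genes, as was the case for 27.3% of all genes. The same held for Tnxb, where the way it passed the filter fixed this outcome. The arrays measure bulk RNA, so more cells of a type and more RNA per cell cannot be told apart.

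**Figure D1:**
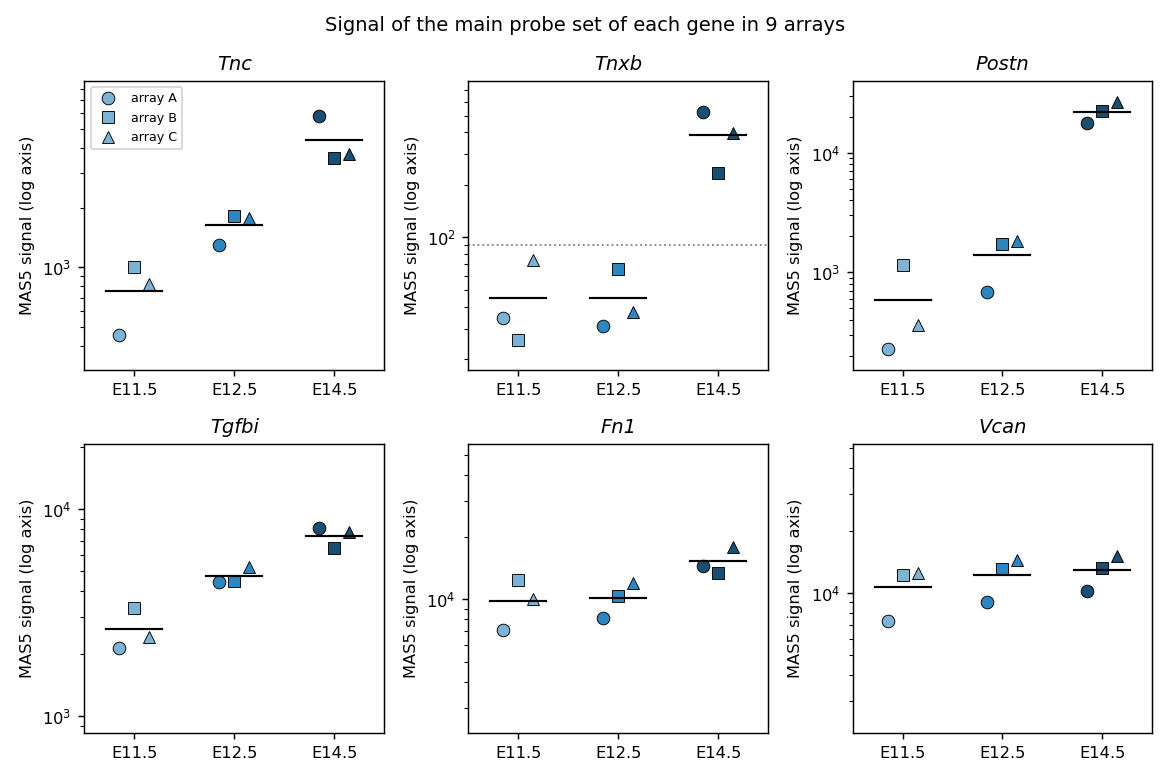
MAS5 signal (log axis, a scale of its own in each panel) of the main probe set of each gene in the 9 arrays by stage; symbols stand for the array letter, horizontal bars for the mean of 3 arrays, and the dotted line in the Tnxb panel for the filter signal of 90.6. Postn lies between 17629.5 and 26591 at E14.5 and between 228 and 1165 at E11.5, while the stages overlap for Vcan.

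Tnc, which encodes tenascin-C, a multi-armed glycoprotein that modulates cell adhesion to fibronectin, was highest at E14.5 in all 3 arrays. Its signals were 452, 1008 and 825 at E11.5 (arrays A, B and C), 1296, 1819 and 1776 at E12.5, and 5819, 3552 and 3748 at E14.5. No 2 stages overlapped, and array A was the lowest of its stage at E11.5 and E12.5 and the highest at E14.5. The log2 change was 2.56 ± 0.31 (SE) in E14.5 minus E11.5 (adjusted p = 2.1e-04) and 1.40 ± 0.31 in E14.5 minus E12.5 (adjusted p = 0.0115). In E12.5 minus E11.5 it was 1.16 ± 0.31 and did not pass (adjusted p = 0.0820). That change passed with the letter A arrays left out (0.98, adjusted p = 0.0410), with array weights (1.27, adjusted p = 0.0241) and with a trended and robust prior (adjusted p = 0.0476), and with the 2 Tnc probe sets averaged it was 0.43 (adjusted p = 0.754). The change in E14.5 minus E12.5 was lost with that average (1.43, adjusted p = 0.0594).

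The further Tnc probe set, 1456344_at, was dim. Its signals were 57.7, 159 and 101 at E11.5, 26.3, 155 and 124 at E12.5, and 157, 129 and 514 at E14.5, and the stages overlapped. Its log2 change was 1.17 ± 0.75 in E14.5 minus E11.5 (adjusted p = 0.275) and -0.29 ± 0.75 in E12.5 minus E11.5 (adjusted p = 0.924). The difference between its change and that of the main probe set was -1.40 ± 0.68 and did not pass (adjusted p = 0.635).

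Tnxb, which encodes tenascin-X, was near the lower end of the signal range until E12.5. Its signals were 34.4, 26.0 and 73.8 at E11.5, 30.8, 66.0 and 37.4 at E12.5, and 526, 233 and 396 at E14.5. The 6 earlier arrays were all under the filter signal of 90.6 and the 3 E14.5 arrays were all over it. The log2 difference was 3.17 in E14.5 minus E11.5 and 3.11 in E14.5 minus E12.5, and 2.01 in both with the floor raised to 90.6, so its size depends on signals near the floor and its place above or below Tnc is not settled. In E12.5 minus E11.5, where both stages were dim, the difference was 0.07 (95% confidence interval -0.92 to 1.06).

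The other tenascin genes on the array stayed dim and were not tested. Tnr, the gene of tenascin-R, a tenascin of the nervous system, had signals between 0.871 and 28.9 over the 9 arrays. Tnn, the gene of tenascin-W, which is found at sites of bone formation, had 3.66, 34.3 and 6.39 at E11.5, 2.22, 4.20 and 10.6 at E12.5, and 185, 77.0 and 63.5 at E14.5. All 3 E14.5 arrays of Tnn lay above the earlier arrays, and 1 of them was over the filter signal.

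Postn, which encodes periostin, a fasciclin-domain protein that binds type I collagen, fibronectin and tenascin-C and promotes collagen crosslinking, had the largest change of the 6. Its signals were 228, 1165 and 365 at E11.5, 688, 1716 and 1831 at E12.5, and 17629.5, 22270.4 and 26591 at E14.5. E14.5 lay far above both other stages, while E12.5 A was below E11.5 B, so the earlier stages overlapped. The log2 change was 5.57 ± 0.56 in E14.5 minus E11.5 (adjusted p = 7.6e-05), the rank 12 increase of 11576 genes, and 4.08 ± 0.56 in E14.5 minus E12.5 (adjusted p = 0.0012), rank 13. In E12.5 minus E11.5 it was 1.49 ± 0.56 (adjusted p = 0.228). This value depended on single arrays of both stages. Without E11.5 B it was 2.16 and passed (adjusted p = 0.0483), and without E11.5 A it was 0.99. Without E12.5 A it was 1.95 (adjusted p = 0.134), and without E12.5 B or C it was 1.29 or 1.24, with no call.

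Tgfbi encodes a relative of periostin with the same kind of fasciclin domains, which is induced by TGF-beta and binds collagens and integrins. Its main probe set had signals of 2126, 3344 and 2403 at E11.5, 4437, 4503 and 5248 at E12.5, and 8079, 6496 and 7726 at E14.5. No 2 stages overlapped. The log2 change was 1.52 ± 0.18 in E14.5 minus E11.5 (adjusted p = 2.2e-04), 0.87 ± 0.18 in E12.5 minus E11.5 (adjusted p = 0.0362) and 0.65 ± 0.18 in E14.5 minus E12.5 (adjusted p = 0.0326). The changes of the single intervals were near the threshold. The first was lost in 12 and the second in 10 of 21 alternative settings, among them each setting that left out 1 E12.5 array (0.80 to 0.92 in E12.5 minus E11.5, with the highest adjusted p = 0.147 without E12.5 C, and 0.61 to 0.73 in E14.5 minus E12.5, with the highest adjusted p = 0.0997 without E12.5 A). The change in E14.5 minus E11.5 passed in all 21.

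The 3 further Tgfbi probe sets gave log2 changes of 1.64 ± 0.25 (1415871_at), 1.35 ± 0.19 (1437463_x_at) and 1.46 ± 0.19 (1456250_x_at) in E14.5 minus E11.5, each called higher with an adjusted p of at most 0.0016. Probe sets with the suffix _x_at or _s_at can bind more than 1 transcript. The signals of 1415871_at were 859, 1449 and 1041 at E11.5, 1649.8, 2069.9 and 2630.1 at E12.5, and 3993, 2719.6 and 3631 at E14.5, again with no overlap between stages. The differences of the 3 from the main probe set lay between -0.17 and 0.12, with no call (lowest adjusted p = 0.940).

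Fn1 changed least among the 4 genes that were called. Its main probe set had signals of 7129.6, 12421 and 10045 at E11.5, 8085, 10396 and 12025 at E12.5, and 14575, 13386 and 17929 at E14.5. The 3 E14.5 arrays were above all others, by a small margin over E11.5 B, and the earlier stages overlapped. The log2 change was 0.66 ± 0.23 in E14.5 minus E11.5 (adjusted p = 0.0447), 0.60 ± 0.23 in E14.5 minus E12.5 (adjusted p = 0.0924, and 0.0467 with the array letters as a replicate block) and 0.06 ± 0.23 in E12.5 minus E11.5 (adjusted p = 0.931).

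The call of Fn1 in E14.5 minus E11.5 was lost in 11 of 21 alternative settings, among them any 1 E14.5 array left out (highest adjusted p = 0.136, without E14.5 C), E11.5 A left out (0.44, adjusted p = 0.148), E11.5 C left out (adjusted p = 0.0771), E12.5 B left out (adjusted p = 0.0640) and median centring of the arrays (0.46, adjusted p = 0.315). The further probe set, 1437218_at, did not follow the main one. Its signals were 858, 1387 and 1600.4 at E11.5, 598, 1290.5 and 1186 at E12.5, and 684, 989 and 1895 at E14.5, and the stages overlapped. Its log2 change in E14.5 minus E11.5 was -0.19 ± 0.43 (adjusted p = 0.780), and the mean of both probe sets changed by 0.23 (adjusted p = 0.597). The difference between the 2 probe sets' changes was -0.85 ± 0.32 (95% confidence interval -1.58 to -0.12), which did not pass over all such differences (adjusted p = 0.468).

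Vcan, which encodes versican, was not called in any contrast. Its main probe set had signals of 7334, 12204 and 12436 at E11.5, 9047, 13083 and 14479.8 at E12.5, and 10263, 13224 and 15125 at E14.5. The stages overlapped, and within each stage array A was the lowest and array C the highest. The log2 change was 0.29 ± 0.26 in E14.5 minus E11.5 (95% confidence interval -0.29 to 0.87, adjusted p = 0.399), 0.21 ± 0.26 in E12.5 minus E11.5 (adjusted p = 0.764) and 0.09 ± 0.26 in E14.5 minus E12.5 (adjusted p = 0.839). Within the letters A, B and C the E14.5 array exceeded the E11.5 array by 0.48, 0.12 and 0.28, and the change with the letters as a replicate block did not pass either (adjusted p = 0.0804). Array A also had the lowest median signal of its stage (68.7, 69.5 and 81.5 from the earliest stage to the latest) and array C the highest (106.34, 106 and 118), and after median centring the change of Vcan was 0.10. The interval reaches to a rise of 0.87, so the data do not show that versican was constant.

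The 2 further Vcan probe sets that passed the filter gave log2 changes of 0.51 ± 0.26 (1421694_a_at, adjusted p = 0.162) and 0.51 ± 0.38 (1427257_at, adjusted p = 0.356) in E14.5 minus E11.5. In both, array A was again the lowest of every stage. The 5 that did not pass had no array over the filter signal, and the brightest of their values was 77.4, in 1433043_at at E11.5 C. They were not tested.

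**Figure D2:**
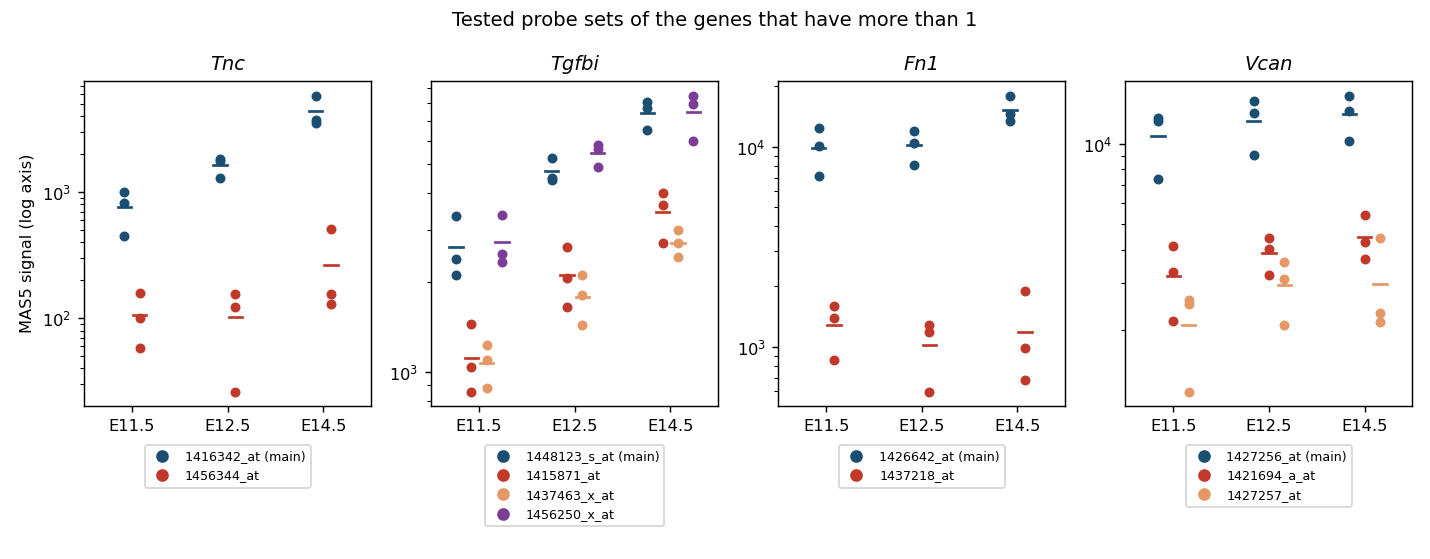
MAS5 signal (log axis) by stage of each tested probe set of the 4 genes with more than 1; points are single arrays and short bars the mean of 3 arrays. The means of all 4 Tgfbi probe sets are ordered by stage, whereas the further Fn1 probe set (1437218_at) overlaps between stages, with 684 to 1895 at E14.5 and 858 to 1600.4 at E11.5.

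In the fit of single probe sets, 6 of the 12 other than that of Tnxb were called higher in E14.5 minus E11.5, against 17.3% of the 20892 probe sets tested. They were the main ones of Tnc and Postn and the 4 of Tgfbi, while that of Fn1 missed the threshold there (adjusted p = 0.0637). In E12.5 minus E11.5, 1 of 12 was called higher, 1456250_x_at of Tgfbi (background 1.2%), and in E14.5 minus E12.5 2 of 12 (background 8.6%), the main ones of Tnc and Postn. None of the 7 differences between a further probe set and its main one was called by limma in E14.5 minus E11.5, where 1 had an unadjusted p under 0.05. Over all such pairs 0.313% were called.

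In E12.5 minus E11.5, 1 of the 5 genes, Tgfbi, was called higher, against 3.11% of all genes. Tnc and Tgfbi were the 2 genes whose arrays did not overlap between these stages, a pattern found in 15.8% of all genes. In E14.5 minus E12.5, 3 of the 5 were called higher (Tnc, Postn and Tgfbi), against 12.6% of all genes. The arrays of these 3 and of Fn1 did not overlap there, as was the case for 20.6% of all genes. Those of Tnxb did not overlap either, which its entry through E14.5 alone fixed in advance.

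**Figure D3:**
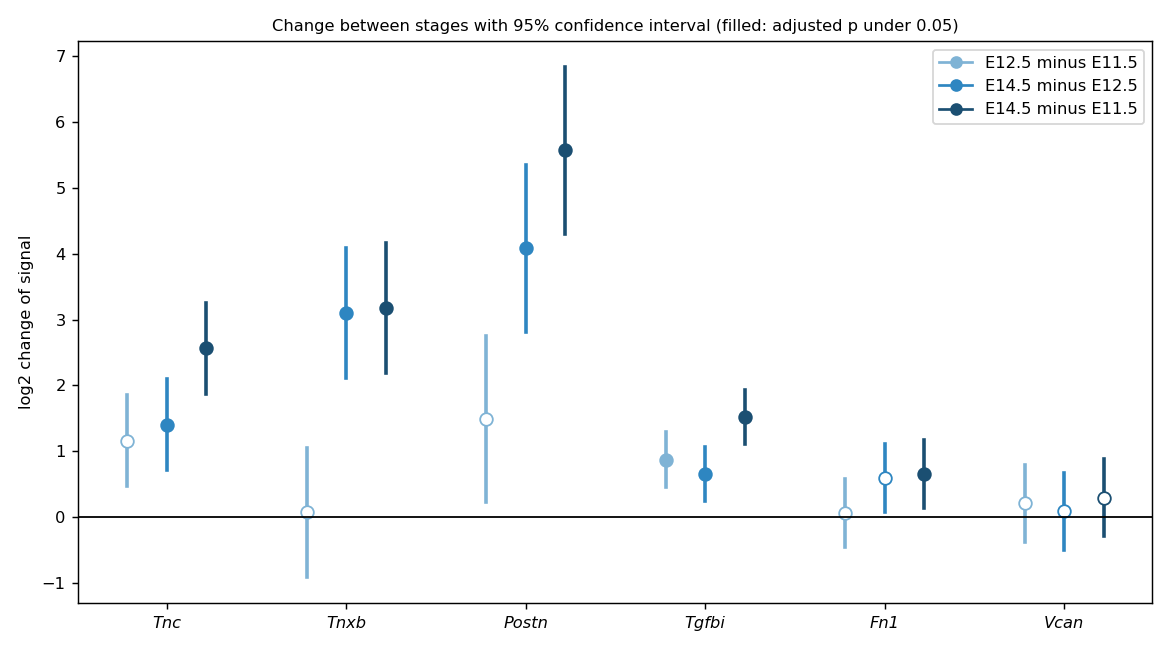
Log2 change of signal with its 95% confidence interval for the 6 genes in the 3 contrasts between stages; filled points have an adjusted p under 0.05. Tgfbi is filled in all 3 contrasts, Vcan in none, and the filled points of Tnxb, which passed the filter through E14.5 alone, are no test.

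Whether the later interval differed from the earlier was tested by the difference between the 2 changes. Limma called none of the 5 genes other than Tnxb, and of these only Postn had an unadjusted p under 0.05. Over all genes 0.769% were called in either direction. Tnxb, which passed the filter through E14.5 alone, is again described without a test. The difference was 2.59 ± 0.98 for Postn (adjusted p = 0.332), 0.54 ± 0.40 for Fn1, 0.24 ± 0.53 for Tnc, -0.12 ± 0.45 for Vcan and -0.22 ± 0.32 for Tgfbi, and 3.04 for Tnxb, whose earlier signals were dim. The later interval spans 2 days and the earlier 1. Per day, a scale added after the data were seen, the difference was 0.55 for Postn, 1.48 for Tnxb, 0.24 for Fn1, -0.46 for Tnc, -0.16 for Vcan and -0.55 for Tgfbi, with no call, and that of Tnc changed sign.

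Genes whose log2 signal most resembled that of each of the 6 were ranked by Pearson's r over the 9 arrays, which share the same 3 stages, so r follows the order of the stages as much as the single arrays. Tnc was closest to Atrnl1, Rdh10, Rbl2, Rtl3 and Man1a (r from 0.987 to 0.994). Rdh10 encodes a retinol dehydrogenase of retinoic acid synthesis. Postn was closest to Creb3l1, Man2a1, Niban1, Etl4 and Akap12 (0.989 to 0.993), and Tgfbi to Zfpm2, Pid1, Dennd2c, Tshz2 and AW551984 (0.983 to 0.989). Creb3l1 encodes a transcription factor of the endoplasmic reticulum needed for collagen secretion in bone.

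Tnxb was closest to Ltbp2, Ccn3, Gna14, Col5a3 and Tlcd4 (r from 0.977 to 0.980). Ltbp2 and Col5a3 encode a microfibril-associated protein and a type V collagen chain. Fn1 was closest to the fibrillin gene Fbn2, Lrp1, Adcy1, Notch2 and Zfp672 (0.965 to 0.979). Vcan was closest to Usp32, Mras, Inpp4a, 4932438A13Rik and Zfp112 (0.964 to 0.970), none of which was called between E14.5 and E11.5 (lowest adjusted p = 0.260). Among the 6 genes themselves r was highest between Tnc and Tgfbi (0.970) and lowest between Tnxb and Vcan (0.321).

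Genes for matrix proteins that bind these 6, or are laid down with them, were also higher at E14.5. Of 20 tested partners 19 rose in E14.5 minus E11.5, where 22.9% of all genes did. Their median log2 change was 2.74 against 0.00 for all genes, and 18 of the 19 with any array before E14.5 over the filter signal rose. The partner list and the lists below were chosen with earlier results of these data known, so their counts are descriptive. The matricellular gene Ccn3, which passed the filter through E14.5 alone, averaged 1503 ± 611 at E14.5 (SD, 3 arrays) and 25.9 ± 18.1, near the floor, at E11.5, a log2 difference of 5.63, and of 3.98 with the floor at 90.6. Dcn, the gene of the collagen-binding proteoglycan decorin, had 18197 ± 3893 at E14.5 and 498 ± 141 at E11.5 (5.21 ± 0.25). The lysyl oxidase gene Lox, whose product crosslinks collagen, changed by 4.37 ± 0.21, and Col6a1, a collagen VI chain gene, by 4.20 ± 0.22. The exception was Fbln1, the gene of a fibulin that binds fibronectin and versican (0.03 ± 0.20, adjusted p = 0.911; chosen after its value was seen). After median centring 15 of 20 were called. In E14.5 minus E12.5 18 of 20 rose (12.6% of all genes), and in E12.5 minus E11.5 5 of 20 (3.11% of all genes).

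Of 15 tested genes for proteases that cleave these proteins, or for their inhibitors, 13 rose in E14.5 minus E11.5. Their median log2 change was 1.62, and 22.9% of all genes rose. Htra1, which encodes a secreted serine protease, changed by 5.46 ± 0.34, with 4600.2 ± 1444.6 at E14.5 and 105 ± 31.6 at E11.5. Adamts5, the gene of a protease that cleaves versican and aggrecan, changed by 2.60 ± 0.14. Mmp9, a gelatinase gene (2.04 ± 0.51), and Tll1, the gene of a tolloid protease (2.00 ± 0.47), were dim. With the floor at 90.6 they changed by 1.13 and 1.24, and Mmp9 was lost without the letter A arrays (adjusted p = 0.0847).

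Of 15 tested integrin and syndecan genes, whose products are the cell-surface receptors of these proteins, 6 rose, with a median log2 change of 0.61. The 6 were 40.0% of the list, where 22.9% of all genes rose. Of the 14 with any array before E14.5 over the filter signal, 5 rose. That is a weaker condition than passing the filter before E14.5. Itga1, a collagen receptor subunit gene that passed the filter through E14.5 alone, differed by 2.93 (1.26 with the floor at 90.6). The syndecan genes Sdc4 and Sdc2 changed by 1.85 ± 0.34 and 1.45 ± 0.26. Itga8, whose product with the beta 1 subunit binds fibronectin and tenascin-C, changed by 0.99 ± 0.12, a call lost after median centring (adjusted p = 0.0817). After centring 4 of 15 were called. The subunit genes Itgav and Itga9, chosen after their values were seen, changed by 0.13 ± 0.16 and -0.08 ± 0.19, with no call.

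Of 10 tested genes for lecticans, link proteins and hyaluronan metabolism, the setting in which versican works, 4 rose and 2 fell. Among all genes 22.9% were called higher and 17.7% lower. Cd44, the gene of the main hyaluronan receptor, changed by 5.07 ± 0.28 (3.11 with its probe sets averaged), with 2962 ± 441 at E14.5 and 92.7 ± 38.9 at E11.5. Has2, the gene of a hyaluronan synthase, changed by 0.98 ± 0.13, a call lost after median centring (adjusted p = 0.0748). The cartilage matrix genes Hapln1 (4.23 ± 0.86) and Acan (3.37 ± 0.96) were uneven within E14.5. Acan had signals of 5409, 554 and 185 in the E14.5 arrays A, B and C, against 79.1, 58.8 and 108 in the E11.5 arrays. Without E14.5 A it changed by 2.01 (adjusted p = 0.0081), and its call was lost without E11.5 B (3.15, adjusted p = 0.0613). The 2 genes that fell were Hmmr (-0.87 ± 0.23), whose product binds hyaluronan and acts in mitosis, and Cemip2 (-0.68 ± 0.15), both chosen after their values were seen.

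Of 21 tested regulators, among them TGF-beta ligands, receptors and SMADs and tendon transcription factors, 7 rose and 3 fell (33.3% and 14.3%, where 22.9% and 17.7% of all genes did), with a median log2 change of 0.09, and no shift of the list is read from these counts. The TGF-beta receptor genes Tgfbr2 and Tgfbr3 changed by 2.78 ± 0.14 and 1.81 ± 0.15 (1.30 and 0.87 with probe sets averaged), and the tendon transcription factor gene Mkx by 2.01 ± 0.19. The receptor gene Tgfbr1, chosen after its value was seen, was called lower (-0.77 ± 0.13, adjusted p = 0.0012). Egr1, an immediate early gene also active in tendon, changed by 2.64 ± 0.83, a call lost when any 1 E14.5 array was left out, and also without array B of E11.5 (1.80, adjusted p = 0.0969) or array C of that stage. Scx was among the 3 that fell (-0.81 ± 0.22, adjusted p = 0.0164), in cells sorted on its reporter, and its call was lost when array B or C of E11.5, or array A or B of E14.5, was left out (adjusted p up to 0.0589). Without E14.5 A, 6 of the 21 were called higher and 1 lower, and after median centring 7 and 2. The SMAD genes Smad2, Smad3 and Smad4, chosen after their values were seen, changed by -0.10, 0.09 and -0.11, with no call.

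**Figure D4:**
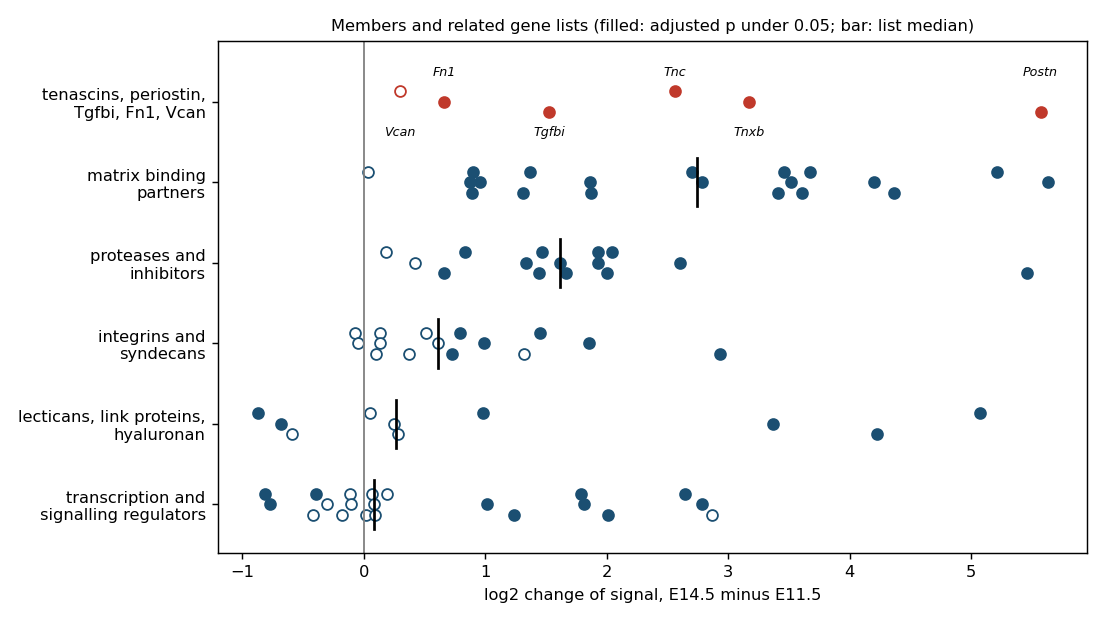
Log2 change of signal in E14.5 minus E11.5 for the 6 genes (top row, named) and for the tested genes of 5 related lists; filled points have an adjusted p under 0.05 and the vertical bars mark the list medians, which run from 2.74 for the matrix partners to 0.09 for the regulators. All partners but Fbln1 are filled and to the right of 0.

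The tendon identity of the cells was checked by markers. Tnmd, which encodes the mature tendon cell protein tenomodulin, had 8066 ± 1811 at E14.5 and 21.4 ± 18.1 at E11.5, with 2 of 3 E11.5 arrays at the floor, and Scx was bright in all 9 arrays (8692 to 21828). The mean log2 signal of 7 tendon markers was 8.57 to 8.71 at E11.5, 9.38 to 10.02 at E12.5 and 12.05 to 12.42 at E14.5. Markers of other cells moved too. Of 11 tested cartilage markers 7 rose in E14.5 minus E11.5, and the mean log2 signal of the 12 on the list was 11.84 in E14.5 A, 9.59 in E14.5 B and 8.48 in E14.5 C, against 7.53 to 8.17 at E11.5. None was called lower, but Sox9 changed by -1.01 (adjusted p = 0.0766) and Col9a1 by -0.25. Without E14.5 A, 6 of the 11 were called higher and 2 lower. Col2a1 and Col9a1 were already bright at E11.5, with 5366 ± 341 and 8484 ± 1012. Col10a1, the marker of hypertrophic cartilage, was at the floor in 7 of 9 arrays. The 5 osteoblast markers on the array averaged 8.69 in E14.5 A, 8.00 in E14.5 B and 6.96 in E14.5 C, against 5.41 to 5.74 at E11.5, where the bone gene Ibsp was at the floor.

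In the same comparison 2 of 3 osteoblast, 5 of 12 skeletal muscle, 4 of 4 endothelial, 2 of 4 blood and macrophage, 3 of 5 epidermal and 1 of 4 nerve and glia markers rose, and 1 muscle, 1 epidermal and 1 nerve marker fell. Of the genes on the array, only 4 of 9 endothelial, 4 of 9 blood and macrophage, 5 of 9 epidermal and 4 of 7 nerve and glia markers were tested. The others did not pass the filter. In each untested endothelial gene the E14.5 and E11.5 signals overlapped. Over all genes 22.9% were called higher and 17.7% lower. The osteoblast gene Alpl and the epidermal gene Cdh1 passed the filter through E14.5 alone, so they had to be higher there. Without them, 1 of 2 osteoblast and 2 of 4 epidermal markers rose. The endothelial genes Cdh5, Emcn and Tek, the macrophage genes Adgre1 and Csf1r and the muscle gene Pax7 also needed E14.5 arrays to pass the filter. Their E11.5 arrays were all under the filter signal, so their calls are no support for a rise. With the floor raised to the filter signal, the change fell from 1.82 to 0.38 for Cdh5 and from 1.95 to 0.82 for Emcn. The endothelial genes Kdr and Tek then changed by 1.11 and 2.40, against 1.83 and 3.24 before. At E14.5 the mean log2 signals were 8.45 to 8.55 for muscle, 6.42 to 6.53 for endothelium, 6.11 to 6.63 for blood and macrophages, 6.49 to 6.97 for epidermis and 6.12 to 6.62 for nerve and glia, against 7.44 to 8.06, 5.14 to 5.89, 5.57 to 6.02, 6.09 to 6.28 and 6.50 to 6.65 at E11.5. Myf6 was at the floor in all 9 arrays. Without the letter A arrays 1 of 4 endothelial, 1 of 4 blood and macrophage, 2 of 5 epidermal and 5 of 11 cartilage markers were called higher. In that setting 1 epidermal and 1 cartilage marker were called lower. After median centring none of the epidermal and none of the blood and macrophage markers was called higher by limma, with 1 lower in each. With centring 1 cartilage marker was called lower too. The part of these cells in the changes above was not tested. Without E14.5 A, the array with the highest cartilage and osteoblast means, Tnc (2.34), Postn (5.73) and Tgfbi (1.46) were still called higher, Tnxb differed by 2.91, 19 of 20 partners and 12 of 15 proteases and inhibitors were called, and Fn1 was not. This setting was added for the lists after the data were seen. It does not remove these markers, so the part of such cells remains untested. In E14.5 B and C the osteoblast means were still 8.00 and 6.96, against 5.41 to 5.74 at E11.5. The cartilage means there were 9.59 and 8.48, against 7.53 to 8.17 at E11.5. Postn had its lowest E14.5 signal in E14.5 A, and Tnc, Tnxb and Tgfbi their highest.

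**Figure D5:**
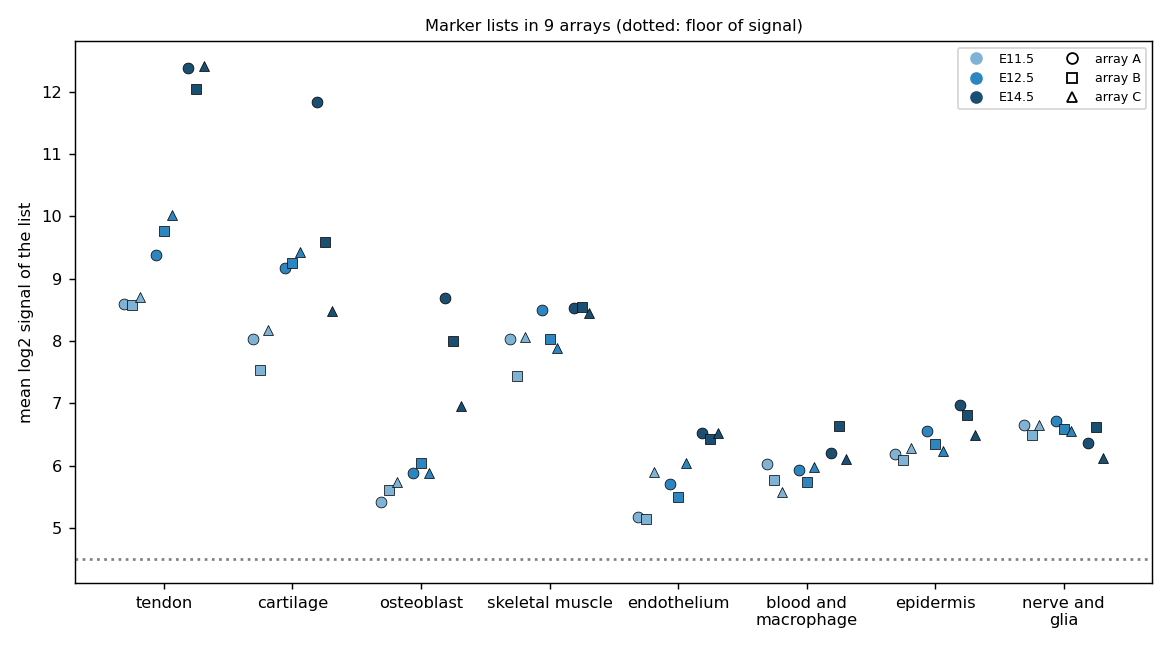
Mean log2 signal of 8 marker lists in each array; colour stands for stage, the symbol for the array letter, and the dotted line for the floor of signal. Tendon markers average 12.05 to 12.42 at E14.5, and the cartilage list spreads from 8.48 to 11.84 among the E14.5 arrays.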

How the data were processed

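The authors deposited 1 intensity per probe set and array, on a linear scale; the submitters' processing notes name MAS5 and Affymetrix Expression Console 1.1. After 2% of the signals were trimmed at either end, every array had a mean of 500.0, which is a scaling by the authors, and none was added. Probe sets were named through the platform annotation, 34958 with 1 gene symbol and 932 with several, and those with several were not used.

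Before log2, signals were raised to a floor of 22.7 (percentile 25 over all arrays). Each gene took its brightest probe set by mean log2 signal, an _x_at one only for lack of another, and entered the test with 3 or more arrays over the overall median of 90.6. All 9 arrays entered 1 limma 3.58.1 fit (R 4.3.3) with a mean per stage and 6 residual degrees of freedom. Contrasts were two-sided with Benjamini-Hochberg adjustment over 11576 genes, at a threshold of 0.05. Another fit held every tested probe set, and a further one the difference between each further probe set and the main one of its gene. These steps were tested on simulated data.

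The genes described and the gene lists were chosen with earlier results of these data known. Named are the 6 genes, Tnr, Tnn, Scx and Tnmd, up to 4 called genes with the largest change in each list in E14.5 minus E11.5, and the 5 tested genes most correlated with each of the 6; other names were chosen after their values were seen. Not every gene that the rule allows is printed.

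The array letters A, B and C were checked as pairs. After stage means were removed, same-letter arrays correlated across genes at 0.520, 0.133 and 0.332 between E12.5 and E11.5 and at 0.310, 0.121 and 0.289 between E14.5 and E12.5, each over 0.1, the value at which the letters were taken to pair these stages. Arrays of different letters reached 0.122 (C with B) in the first comparison and 0.175 (B with C) in the second, so a pairing of letter B is not shown. Between E14.5 and E11.5 the values were 0.313, -0.00513 and 0.238. What a letter stands for is not stated in the labels, and the unpaired fit is the main one. The alternatives covered normalization, floor, filter, variance prior, array weights, the letters as a block, the arrays in the fit and the choice of probe set. The number of arrays limits the precision.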

Additional observations from a re-analysis of the deposited data

How the results depend on the processing

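Over 21 settings, the changes of Tnc, Postn and Tgfbi in E14.5 minus E11.5 and of Postn in E14.5 minus E12.5 stayed called. Counts here are over the 6 genes, Tnxb included. Of 378 member changes between stages, 325 kept direction and call, 34 lost and 6 gained the call and 13 reversed; the cause was not tested. The count called in E12.5 minus E11.5 was 0 with median centring, without a filter, with probe sets averaged or with only the compared stages, 2 with a trended prior or array weights, and 0 to 2 with single arrays left out. In E14.5 minus E12.5 it was 2 with probe sets averaged and 3 to 4 with single arrays left out. In the later minus the earlier interval it was 1, Tnxb, with median centring and with the higher floor, which sets all its arrays before E14.5 to 1 value and so produces that call.

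The reversals were in changes that were not called. In E12.5 minus E11.5, Tnxb was -0.016 with median centring, -0.065 with quantile normalization and -0.25 to 0.50 with single arrays left out, and Fn1 was -0.024 with median centring, -0.15 with probe sets averaged and -0.15 to 0.25 with single arrays left out. Vcan was -0.042 to 0.41 there. In E14.5 minus E12.5 Vcan was -0.027 with median centring and -0.12 to 0.24 with single arrays left out. Between intervals, Tnc was -0.072 with array weights, -0.46 per day and -0.070 to 0.58 with single arrays left out, and Vcan -0.52 to 0.15.

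With the array letters as a replicate block, Fn1 gained the call in E14.5 minus E12.5 (0.60, adjusted p = 0.0467) and no other call among the 6 genes changed. Median centring shifted the median of all genes by -0.20 in E14.5 minus E11.5 and by -0.11 in E14.5 minus E12.5, and in the second of these the higher share of calls was 69.4% with centring and 57.6% without. Counts over all genes with centring were 2307 against 4692 (E14.5 minus E11.5), 176 against 411 (E12.5 minus E11.5) and 860 against 2542 (E14.5 minus E12.5). Over all settings the calls in E12.5 minus E11.5 reached 612 with array weights and were fewest without E12.5 C, and those in the later minus the earlier interval, 89 in the fit as reported, from 19 (no floor) to 220 (higher floor). Signals near the floor, as for Tnxb before E14.5, limit the size of a change that can be measured.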
